A study of Homo sapiens with 6 samples.

Results

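The genes examined here were 10 components that act between the Wnt receptors and β-catenin. They were the scaffolds APC, AXIN1 and AXIN2, the kinases GSK3A, GSK3B and CSNK1A1, the ubiquitin ligase subunit BTRC, and the Dishevelled genes DVL1, DVL2 and DVL3. They were chosen by name, as every transcript of the count table whose GENCODE v29 gene symbol is one of these, and all 10 were found, out of 18750 genes. Their 78 transcripts stood among the 98886 transcripts of the table. The cells carried the label HCT116, an established colorectal carcinoma line. One group was transfected with an siRNA against the long non-coding RNA AC010789.1 (si-AC010789.1, 3 libraries), and the other with a negative control siRNA (siRNA-NC, 3 libraries); no dose or time is given in the labels. No other genotype or agent separates the groups by the labels, and both were grown in the same serum-supplemented DMEM. AC010789.1 itself was not analysed here, so the size of the knockdown is not known from these data. The study reports that it checked the knockdown in its sequenced samples.

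The destruction complex keeps β-catenin low in resting cells. APC and the Axins hold β-catenin, casein kinase 1α (CSNK1A1) and glycogen synthase kinase 3 phosphorylate it in turn, and β-TrCP (BTRC) then marks it for the proteasome. When Wnt binds its receptors, the Dishevelled proteins polymerise at the membrane and draw Axin away, and β-catenin accumulates and drives TCF/LEF target genes, AXIN2 among them. Colorectal cancers commonly carry mutations in APC or in CTNNB1, the gene of β-catenin, and HCT116 is known as a line with mutant CTNNB1 and intact APC. The study proposed that AC010789.1 acts through miR-432-3p and Wnt/β-catenin signalling. The question here was whether the RNAs of this machinery differed between the groups.

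Whole-number read counts per transcript were deposited, and the libraries held from 11277222 to 13443866 counts. Counts were summed per gene. Levels are given as CPM, counts scaled to the library's total times a normalization factor (TMM) fitted for that library. The factors ran from 0.9935 to 1.0072 for genes and from 0.9855 to 1.0149 for transcripts. CPM of a gene and of its transcripts are therefore not on exactly the same scale. On the totals without these factors, 3 counts, taken as a floor, were 0.2232 to 0.266 CPM, which covers counting error only. Of the epithelial and intestinal markers looked up, KRT8 had 5558 to 11278 counts per library and KRT18 had 4395 to 6129, while EPCAM had 35 to 68 and the intestinal cadherin CDH17 had 0 to 2. KRT19, CDX2 and VIL1 were looked up too and had no transcript among those counted. The same held for PTPRC, CD3E, PECAM1, ALB and GFAP, looked up as markers of other cells. The fibroblast genes COL1A1, COL3A1 and DCN had 426 to 616, 22 to 45 and 17 to 31 counts, and the endothelial gene VWF had 0 to 4. The summed level of the epithelial list was 984 to 1230 CPM in the control group and 800 to 1040 CPM in si-AC010789.1, and that of the other list was 43.2 to 51.9 and 44.7 to 52.3 CPM. The low EPCAM counts go against what is known of HCT116, so the cells are named below by their label alone. In bulk RNA, a lower level in each cell and fewer cells with the RNA cannot be told apart. The labels do not say that the replicates were separate cultures; the study speaks of biological repeats and offers cells of different generations as a possible source of spread within its groups. P-values measure the spread between these libraries, and how much of it is technical was not tested.

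With edgeR's quasi-likelihood test over 13750 genes, 0 of the 10 members differed between the groups at a Benjamini-Hochberg adjusted p under 0.05, beside 0.982% of all genes tested. Their adjusted p-values ran from 0.26 to 0.986. At the study's criteria, an unadjusted p under 0.05 with an absolute log2 fold change over 1, the count was 0 of 10, beside 0.778% of all genes. At an unadjusted p under 0.05 alone it was 1 of 10, CSNK1A1, beside 17.2% of all genes, and DESeq2 gave 0 of 10 at either the adjusted or the unadjusted threshold. The fitted log2 fold change (si-AC010789.1 over siRNA-NC) was above 0 for 6 members and below 0 for 4, with a median of 0.0719, against -0.000655 over all genes. The median absolute log2 fold change was 0.103 for the members and 0.144 over all genes. The groups did not overlap for GSK3B and CSNK1A1, 2 of the 10, where 25.1% of all genes had groups that did not overlap. An exact permutation test of 3 against 3 libraries cannot go below p = 0.1.

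**Figure D1:**
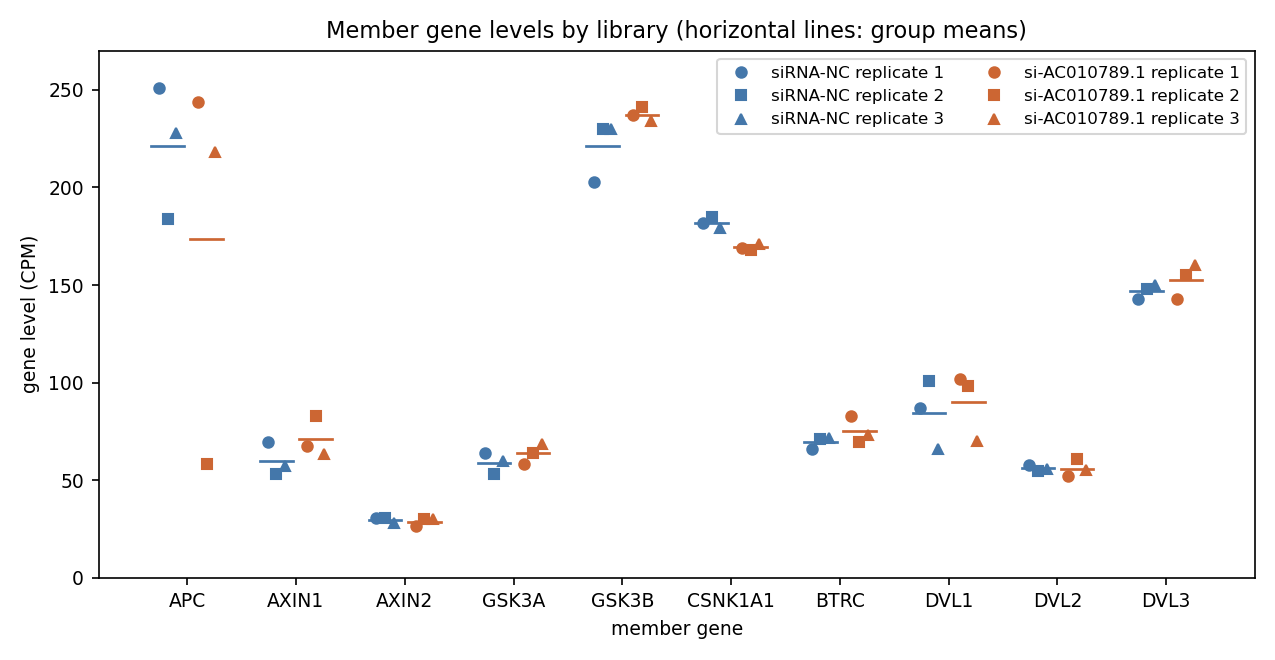
Level of each of the 10 genes in CPM (linear axis from 0) in each library, siRNA-NC in blue and si-AC010789.1 in orange; symbols mark the replicate number and horizontal lines the group means of 3 libraries. Most groups overlap, APC has 1 library far below the others at 58.3 CPM, and the groups are separate for GSK3B (higher with si-AC010789.1) and CSNK1A1 (lower).

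APC is the scaffold whose loss starts most colorectal tumours. Its level was 251, 184 and 228 CPM in siRNA-NC replicates 1 to 3, and 244, 58.3 and 218 CPM in si-AC010789.1 replicates 1 to 3. A single library therefore stood apart: si-AC010789.1 replicate 2 held 731 APC counts where the other 5 held 2438 to 3043. The lowest of those 5 was 3.15-fold above it in CPM, and the groups otherwise overlapped. In 418 of the 13750 genes tested (3.04%), 1 library lay at less than 0.5 of the lowest other library, and in 64 of these it was si-AC010789.1 replicate 2. Over all 6 libraries the log2 fold change of APC was -0.35 (SE 0.479, 95% interval -1.5 to 0.8, adjusted p = 0.762 with edgeR). Without si-AC010789.1 replicate 2 it was 0.067, and the adjusted p was 0.867. What set this library apart for APC was not tested.

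The low library was low in the main APC transcript. ENST00000257430, which codes for the full-length protein, had 2309, 2336 and 2407 counts in siRNA-NC, against 2290, 661 and 2146 in si-AC010789.1. The next transcript, ENST00000507379, starts at the upstream promoter (5:112707522-112839054 on the plus strand of GRCh38). It had 470, 39 and 595 counts with siRNA-NC, against 470, 29 and 376 in si-AC010789.1, so both libraries numbered 2 were low in it, whichever siRNA they had received. In those libraries it was 1.6% and 3.97% of the APC counts, against 14.0% to 19.6% in the others.

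AXIN1 is the limiting scaffold that brings the kinases and β-catenin together. Its level was 69.7, 53.1 and 57.3 CPM in the control group and 67.3, 82.9 and 63.5 CPM in si-AC010789.1. The means were 60.0 ± 8.61 and 71.2 ± 10.3 CPM (SD, n = 3), with overlapping groups. The log2 fold change was 0.25 (SE 0.14, interval -0.09 to 0.58, adjusted p = 0.425). It was 0.13 without si-AC010789.1 replicate 2, the highest library, and 0.16 without siRNA-NC replicate 2, the lowest.

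AXIN2 does the same work as AXIN1 but is itself switched on by TCF/LEF, so its RNA is widely read as a sign of Wnt activity. It was at 30.9, 30.4 and 28.0 CPM in siRNA-NC, against at 26.3, 29.9 and 29.9 CPM in si-AC010789.1. The groups overlapped, and the highest library was 1.17-fold above the lowest. The log2 fold change of -0.051 had an SE of 0.0883 (adjusted p = 0.815), and its interval of -0.26 to 0.16 corresponds to 0.833- to 1.12-fold.

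The kinases come next. CSNK1A1, which places the priming phosphate on β-catenin, had 182, 185 and 179 CPM with siRNA-NC, against 169, 168 and 171 CPM in si-AC010789.1. Every si-AC010789.1 library lay below every siRNA-NC library, with means of 182 ± 3.32 and 169 ± 1.99 CPM (SD, n = 3). The log2 fold change was -0.10 (SE 0.0399, interval -0.2 to -0.01), or 0.871- to 0.995-fold, with an unadjusted edgeR p of 0.0387, an adjusted p of 0.26 and an exact two-sided permutation p of 0.1. It did not pass the test. A paralogue without introns, CSNK1A1L, had only 6 to 11 counts per library, and reads the 2 genes share could have been divided either way.

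GSK3B, which extends the phosphorylation that CSNK1A1 begins, had 203, 230 and 230 CPM in the control group and 237, 241 and 234 CPM in si-AC010789.1. All 3 si-AC010789.1 libraries were above all siRNA-NC libraries, but by a small margin. The log2 fold change was 0.10 (SE 0.0595, interval -0.04 to 0.25, adjusted p = 0.436, exact permutation p = 0.1). Its close relative GSK3A had 63.7, 53.4 and 60.1 CPM in siRNA-NC, against 58.5, 64.2 and 68.6 CPM in si-AC010789.1, with overlapping groups and a log2 fold change of 0.11 (SE 0.0938, adjusted p = 0.602). Summed over protein-coding transcripts only, the log2 fold change of GSK3A was 0.47 (adjusted p = 0.486 with edgeR). That sum leaves out ENST00000453535, whose annotated coding length equals that of ENST00000222330.

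BTRC codes for the F-box protein that recognises phosphorylated β-catenin. Its level was 66.0, 70.9 and 71.5 CPM with siRNA-NC, against 82.7, 69.5 and 73.2 CPM in si-AC010789.1, so 1 si-AC010789.1 library was the highest and another lay inside the siRNA-NC range. The log2 fold change was 0.11 (SE 0.0819, interval -0.08 to 0.31, adjusted p = 0.537). BTRC is also the only one of the 10 near AC010789.1: it spans 10:101354033-101557321 on the plus strand of GRCh38 in GENCODE v29, and AC010789.1 spans 10:101704652-101708401 on the minus strand, 147 kb away. Of the 12 protein-coding genes tested within 500 kb of AC010789.1, BTRC included, 6 were fitted higher and 6 lower. Other gene types in that window were not counted. Of these 12, 3 had an unadjusted p under 0.05, beside 17.2% of all genes. The nearest, FBXW4 at 9.36 kb, had a log2 fold change of -0.3 (adjusted p = 0.163 with edgeR). One of the 12 passed the adjusted threshold, beside 0.982% of all genes: NOLC1, 444 kb from AC010789.1 and named after its value was seen. NOLC1 had 276, 284 and 293 CPM with the control siRNA, against 342, 340 and 361 CPM with si-AC010789.1 (adjusted p = 0.049981 with edgeR). Over 12 alternatives its adjusted p ran from 0.000562 to 0.167 and passed in 3, and in none that left out a library or used the replicate block.

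The Dishevelled genes pass the signal from the receptors to Axin. DVL3 had 143, 148 and 150 CPM in the control group and 143, 155 and 160 CPM in si-AC010789.1. DVL2 had 57.6, 54.5 and 56.0 CPM in siRNA-NC, against 52.0, 60.7 and 55.0 CPM in si-AC010789.1. Both pairs of groups overlapped, and the 95% intervals were narrow, at 0.943- to 1.14-fold for DVL3 and 0.878- to 1.13-fold for DVL2, with adjusted p-values of 0.698 and 0.986.

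DVL1 varied more. It had 86.8, 101 and 66.0 CPM with siRNA-NC, against 102, 98.4 and 70.2 CPM in si-AC010789.1, and the lowest library of each group was the one numbered 3. The log2 fold change was 0.092 (SE 0.198, interval -0.38 to 0.57, adjusted p = 0.852). Its sign rested on single libraries: leaving out siRNA-NC replicate 3 gave -0.061, and leaving out si-AC010789.1 replicate 1 gave -0.0079. The spread inside the groups was therefore larger than the difference between them.

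**Figure D2:**
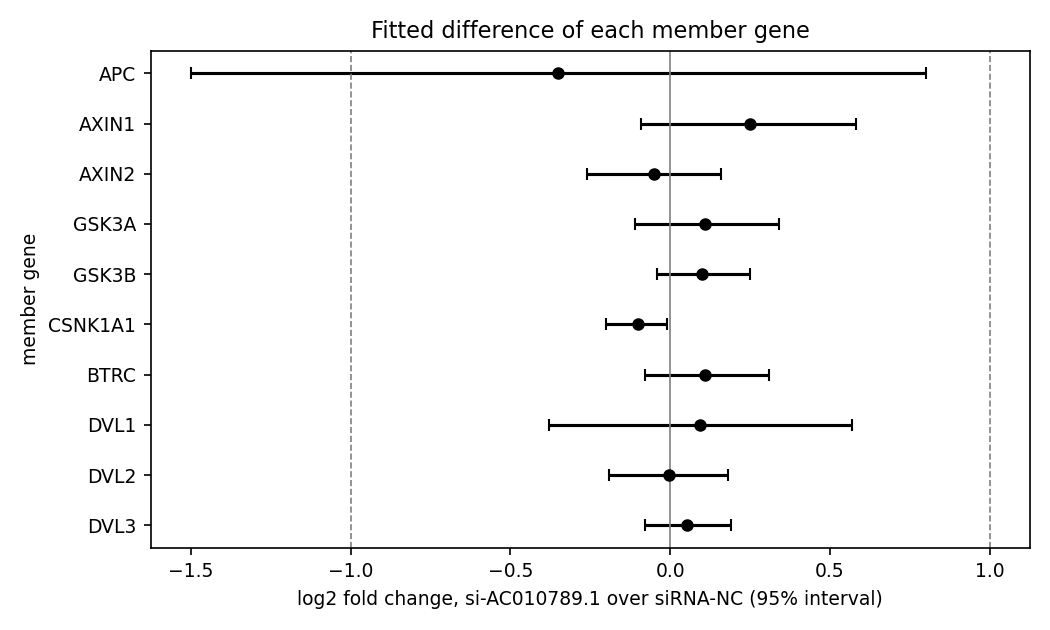
Fitted log2 fold change of each gene (si-AC010789.1 over siRNA-NC, points) with its 95% interval from the edgeR fit; dashed lines mark -1 and 1. The interval reaches past -1 for APC alone, is widest for APC and DVL1, and leaves out 0 for CSNK1A1 alone (-0.2 to -0.01).

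Gene levels were compared with each other only per length, as TPM (counts divided by the annotated length of each transcript and scaled to a fixed total). CSNK1A1 was highest at 168 ± 19.6 TPM (SD over the 6 libraries), and its lowest library at 144 TPM was above the highest library of any other member. DVL2 at 76.0 ± 10.3, DVL3 at 72.9 ± 7.32, DVL1 at 64.4 ± 11.1, GSK3B at 63.6 ± 3.33 and APC at 52.5 ± 19.5 TPM followed. The range of each of these overlapped that of its neighbour in the order, so the ranges do not separate neighbouring ranks. Compared within each library, DVL3 was above APC in all 6. GSK3A at 48.2 ± 4.59, AXIN1 at 37.5 ± 5.97 and BTRC at 32.7 ± 4.53 TPM overlapped their neighbours in the same way. The range of GSK3A (40.8 to 53.7 TPM) lay above that of BTRC (26.4 to 39.0 TPM), and GSK3A was above AXIN1 within each of the 6 libraries. AXIN2 was lowest at 15 ± 0.639 TPM, and its highest library at 15.7 TPM was below the lowest of the others, APC in si-AC010789.1 replicate 2 at 17.8 TPM. The ranges of all 3 Dishevelled genes overlapped. The position of CSNK1A1 depended on how counts were divided among its transcripts: with the length of its longest counted transcript for all counts it was 72.9 TPM, and GSK3B was then 74.9 TPM.

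**Figure D3:**
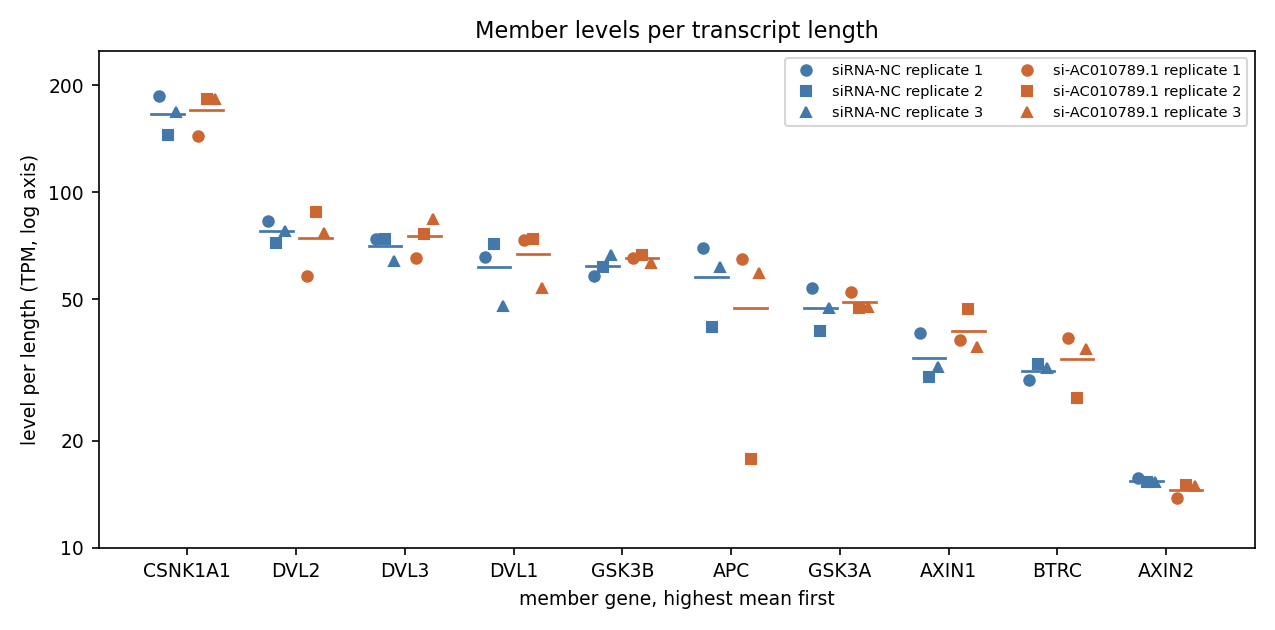
Level per length in TPM (log axis) of each gene in each library, ordered by the mean over 6 libraries, with colours, symbols and group means as for the CPM plot. CSNK1A1 at the left and AXIN2 at the right are separate from the rest, and the 8 genes between them form an overlapping series.

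Single transcripts were much noisier than the gene sums. The fitted spread between replicates (biological coefficient of variation) was 0.17 for genes and 0.698 for transcripts. Of the 78 member transcripts, 44 are annotated as protein-coding, 20 as retained introns, 6 as targets of nonsense-mediated decay and 8 as processed transcripts, and 48 passed the filter on low counts. In the edgeR fit over 44319 transcripts, 0 of these 48 had an adjusted p under 0.05, beside 0.0135% of all transcripts tested, and the lowest adjusted p was 0.913. None met the study's unadjusted criteria, beside 3.5% of all transcripts, and 0 had an unadjusted p under 0.05 (lowest 0.0997, the retained-intron transcript ENST00000572285 of DVL2). DESeq2 gave 0 at the adjusted and 0 at the unadjusted threshold. Groups did not overlap for 2 of the 48, beside 14.0% of all transcripts. One was the leading GSK3B transcript ENST00000264235, at 197, 231 and 226 CPM in the control group and 233, 236 and 231 CPM in si-AC010789.1. The other was the minor CSNK1A1 transcript ENST00000606299, at 2.55, 0.0 and 2.26 CPM in siRNA-NC, against 2.78, 2.77 and 2.58 CPM in si-AC010789.1. Both separations were slight: the nearest libraries both round to 231 CPM for the first, and stood at 2.55 and 2.58 CPM for the second.

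The transcript with the highest mean CPM took a steady share of the counts in some members. For GSK3B, ENST00000264235 held 97.5% to 99.0% of the counts of each library, and for DVL3, ENST00000313143 held 92.4% to 95.7%. For AXIN2, ENST00000307078 held 70.9% to 81.9%, with ENST00000618960 second at 14.3% to 25.3%. In 6 members (APC, AXIN1, AXIN2, GSK3B, CSNK1A1 and DVL3) the same transcript led in all 6 libraries. In GSK3A, BTRC, DVL1 and DVL2 the leader changed between libraries, and in no member did the leading share separate the groups.

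For AXIN1, ENST00000354866 held 46.8% to 86.4% and ENST00000262320 10.7% to 42.7%. For CSNK1A1, ENST00000261798 held 32.2% to 54.9% and ENST00000377843 14.0% to 24.0%, and for DVL2, ENST00000005340 held 32.9% to 43.4% and ENST00000575458 24.8% to 37.6%. The second transcripts of GSK3B (ENST00000316626) and DVL3 (the retained-intron ENST00000478247) stayed at 0.817% to 1.95% and 1.11% to 3.09%. Exact permutation p-values of the leading shares ran from 0.2 to 0.9.

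DVL1 showed the widest range. Its transcript ENST00000378891 held 84.8%, 92.1% and 19.1% of the DVL1 counts with siRNA-NC, against 84.3%, 84.2% and 18.3% in si-AC010789.1. In both libraries numbered 3 the leader was ENST00000378888 instead, with 65.3% and 60.6%. The group means of 65.3% ± 40.2 and 62.3% ± 38.1 (SD, n = 3) differed by far less than the spread within either group (exact permutation p = 0.5). TAS1R3, on the opposite strand, overlaps DVL1 and had 84 to 122 counts, and the strand setting of the counting is not given in the sources used here. Other overlapping genes held few counts, 0 to 5 for AC008575.1 at APC and 6 to 23 for AC006486.1 at GSK3A.

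In BTRC and GSK3A other libraries stood apart. For BTRC, ENST00000408038 held 86.2%, 53.3% and 29.9% in the control group and 81.1%, 90.8% and 76.5% in si-AC010789.1. The si-AC010789.1 libraries were all above 2 of the 3 siRNA-NC libraries, but siRNA-NC replicate 1 lay within their range (exact permutation p = 0.3). The longer ENST00000370187 led in siRNA-NC replicate 3 with 64.2%, and held 5.63% to 20.6% elsewhere. For GSK3A, the full-length transcript ENST00000222330 had 501, 5 and 6 counts in siRNA-NC, against 428, 363 and 88 in si-AC010789.1. ENST00000453535, annotated as a target of nonsense-mediated decay, had 3, 286 and 320 in the control group, against 10, 35 and 77. Both ENST00000222330 and ENST00000453535 are annotated with a coding length of 1452 bases. The log2 fold changes of these transcripts were 0.71 (SE 1.81, adjusted p = 0.994) and -2.23 (SE 1.47, adjusted p = 0.946), so even large fitted differences lay within their error. In si-AC010789.1 replicate 3, ENST00000398249 took 77.2% of the GSK3A counts, its highest share.

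**Figure D4:**
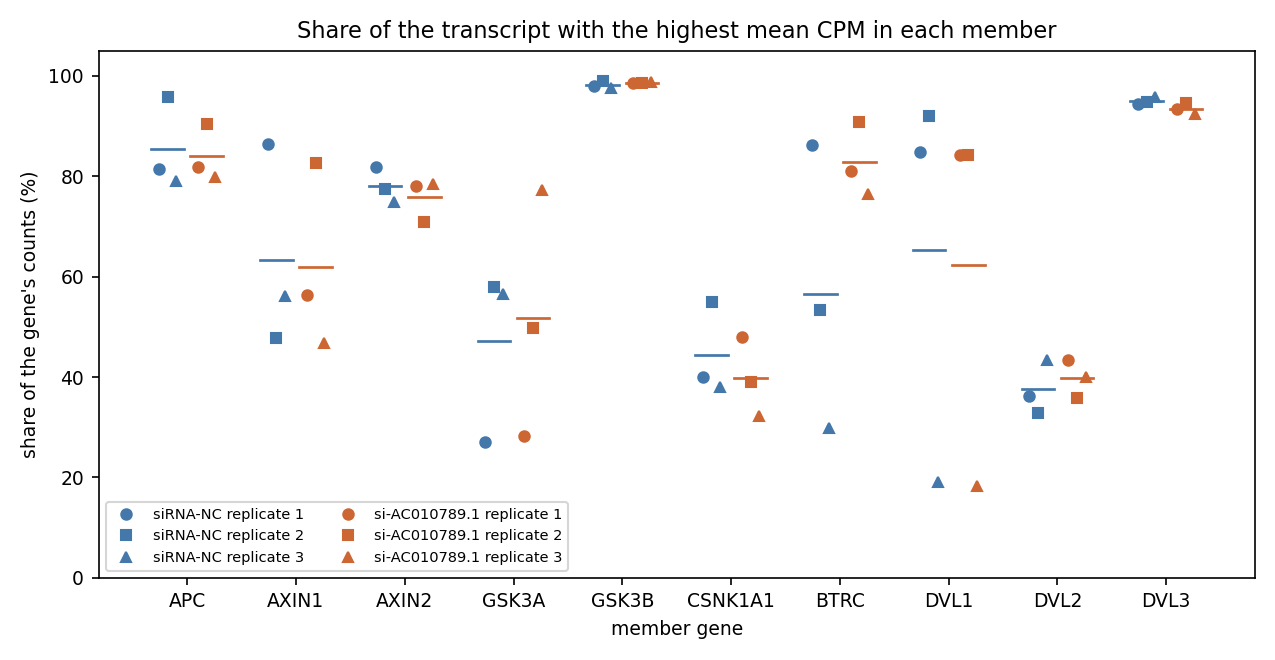
Share of each gene's counts (percent) that fell to its transcript with the highest mean CPM, per library, with colours, symbols and group means as for the CPM plot. The shares of GSK3B and DVL3 sit above 90% in all libraries, and those of AXIN1, GSK3A and DVL1 spread widely within both groups and that of BTRC within siRNA-NC, with both libraries numbered 3 near 19% for DVL1.

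The transcripts differ in coding stretches that can be read directly. A set of 4 whose share varied widely between libraries is printed here from the GENCODE v29 transcripts, 5′ to 3′ on the coding strand, with the stretch in capitals between 12 flanking bases of the spliced RNA in lower case. They lie at 16:291190-291297 (minus strand, AXIN1), 10:101430345-101430452 (plus strand, BTRC), 1:1339287-1339361 (minus strand, DVL1) and 5:149517794-149517877 (minus strand, CSNK1A1) of GRCh38.
AXIN1 stretch of 108 bases: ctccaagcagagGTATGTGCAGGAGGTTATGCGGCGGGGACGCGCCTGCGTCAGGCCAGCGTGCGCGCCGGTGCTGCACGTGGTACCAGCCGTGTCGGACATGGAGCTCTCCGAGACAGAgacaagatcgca
BTRC stretch of 108 bases: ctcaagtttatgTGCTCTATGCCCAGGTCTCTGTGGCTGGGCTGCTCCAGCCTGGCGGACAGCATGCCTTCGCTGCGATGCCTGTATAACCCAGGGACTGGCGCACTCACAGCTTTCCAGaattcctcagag
DVL1 stretch of 75 bases: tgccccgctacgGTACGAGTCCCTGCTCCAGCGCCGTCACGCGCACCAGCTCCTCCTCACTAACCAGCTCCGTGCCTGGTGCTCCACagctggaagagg
CSNK1A1 stretch of 84 bases: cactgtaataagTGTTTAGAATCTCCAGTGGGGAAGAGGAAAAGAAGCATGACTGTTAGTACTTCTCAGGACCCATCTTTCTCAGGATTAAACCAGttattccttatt
Only stretches whose length is a multiple of 3 were taken for printing, so each leaves the reading frame beyond it as it was. They add 36, 36, 25 and 28 codons. A GSK3A stretch of 37 bases, with a share from 27.9% to 79.9% over the libraries, was left out by this rule.

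The share of counts in transcripts that hold the stretch was then compared, out of all transcripts of the gene that span it and hold either all or none of it, non-coding ones included. For the BTRC stretch it was 8.9%, 42.8% and 68.4% with siRNA-NC, against 13%, 6.83% and 17.0% in si-AC010789.1, which overlapped through siRNA-NC replicate 1 (exact permutation p = 0.3). For the DVL1 stretch it was 10.6%, 6.68% and 67.6% with the control siRNA, against 12.3%, 12% and 64.1% with si-AC010789.1, so again the libraries numbered 3 stood apart in both groups. For AXIN1 it was 13.5%, 51.4% and 42.9% with the control siRNA, against 42.3%, 17.3% and 51.5% with si-AC010789.1.

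For the CSNK1A1 stretch of 84 bases the share was 30.4%, 13.7% and 25.9% in the control group and 12.3%, 33.4% and 36.9% in si-AC010789.1, with overlapping groups. Of the 14 stretches compared over the members, 13 overlapped between groups. The exception was a stretch of 41 bases in CSNK1A1, at 5:149505442-149505482, which 2 minor transcripts hold whole. Against transcripts without any of it, their share was 5.58%, 5.43% and 5.45% in siRNA-NC, against 6.8%, 7.09% and 6.9% in si-AC010789.1, with exact permutation p = 0.1, the smallest possible here. Transcripts that hold 36 of the 41 bases are left out of that share; with them counted, it was 3.04%, 4.04% and 2.87% in the control group, against 4.29%, 3.72% and 3.37%, and the groups overlapped (exact permutation p = 0.3). No share of stretches over all genes was computed. The sources used here do not say how reads shared by transcripts were divided, and these shares rest on that division.

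The microRNA named in the study, miR-432-3p, was set against the members because AC010789.1 was proposed to bind it. Its mature sequence (RefSeq, GRCh38.p14) is shown with the seed, bases 2 to 8, in capitals. Below it stand the only 2 matches found in the 3′ UTRs of the 10 leading protein-coding transcripts, with the match in capitals.
miR-432-3p: cUGGAUGGcuccuccaugucu
DVL2 site: tgaagaattcCCATCCAttgggcccct
DVL3 site: cctccaatagCCATCCAtgccatccct
The search used CCATCCA, the reverse complement of the seed, and CATCCAA, the reverse complement of bases 2 to 7 followed by A, on the transcript strand; the 2 words can overlap by 6 bases. The DVL2 match lies at 17:7225558-7225564 (minus strand) and the DVL3 match at 3:184171329-184171335 (plus strand) of GRCh38. Of 12053 tested genes with a 3′ UTR, 1886 (15.6%) held a match by the same search, beside 2 of the 10 members. The median 3′ UTR was 1133 bases over those genes and 1763 bases for the members, and this difference in length was not adjusted for. DVL2 and DVL3 had log2 fold changes of -0.004 and 0.052, both inside their error. A match in these letters is a description and was not tested as a binding site.

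The other genes of the pathway were counted from lists written by hand. Of 27 partners of the destruction complex, all were tested, 11 were fitted higher and 16 lower, and 0 passed the adjusted threshold, with 3 at an unadjusted p under 0.05, beside 0.982% and 17.2% of all genes. The median log2 fold change was -0.0271. Those 3 were PPP2CB, a catalytic subunit of protein phosphatase 2A, at 0.20 (adjusted p = 0.185), FRAT1, an inhibitor of GSK3, at -0.44 (adjusted p = 0.211), and USP34, a deubiquitinase of Axin, at -0.12 (adjusted p = 0.244). CTNNB1 itself had 160, 164 and 183 CPM with siRNA-NC, against 184, 188 and 179 CPM in si-AC010789.1. The CTNNB1 groups overlapped, with a log2 fold change of 0.12 (SE 0.0618, adjusted p = 0.389).

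Of 28 partners of Dishevelled, 21 were tested, 13 fitted higher and 8 lower, and 0 passed the adjusted threshold, with 6 at an unadjusted p under 0.05, beside 0.982% and 17.2% of all genes. The median log2 fold change was 0.0377. CXXC4, which binds the PDZ domain of Dishevelled and restrains Wnt signalling, was the only one to meet the unadjusted criteria. It had 4, 11 and 4 counts in the control group and 22, 23 and 20 in si-AC010789.1, and on these few counts the fitted difference was 1.82 on the log2 scale (SE 0.405, adjusted p = 0.103). CCDC88C, a Dishevelled-binding protein also called Daple, stood at 0.32 (adjusted p = 0.115), and CSNK2A2, a catalytic subunit of casein kinase 2, at 0.20 (adjusted p = 0.128).

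Of 21 target and feedback genes of the Wnt pathway, AXIN2 included, 14 were tested, 4 fitted higher and 10 lower, with a median log2 fold change of -0.0805. One passed, beside 0.982% of all genes: CCND1, the gene of cyclin D1, rose from 176, 190 and 202 CPM in siRNA-NC to 241, 262 and 254 CPM in si-AC010789.1. Its log2 fold change was 0.41 (SE 0.0634, adjusted p = 0.0473 with edgeR), and over 12 alternatives the adjusted p ran from 0.000127 to 0.157 and passed in 3. CCND1 passed in none of the fits that left out any 1 of the 6 libraries, and with the replicate number as a block its adjusted p was 0.147. In separate assays of HCT116 and SW1116 cells, the study reported lower cyclin D1 mRNA with AC010789.1 knockdown, the opposite direction. It reported lower cyclin D1 protein too, in stable knockdown cells rather than the siRNA-transfected cells sequenced. The study also reported lower TCF1, JUN, CD44 and C-myc mRNA and lower C-myc protein. MYC, the gene of C-myc, had 169, 120 and 10.4 CPM in siRNA-NC, against 12.7, 14.3 and 166 CPM in si-AC010789.1. Its log2 fold change was -0.63 (SE 1.24, adjusted p = 0.838 with edgeR). Why the directions differ for CCND1 was not tested. TCF7 and LEF1, which code for TCF/LEF factors and are targets themselves, had log2 fold changes of -0.79 and -0.34 (adjusted p = 0.285 and 0.29).

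**Figure D5:**
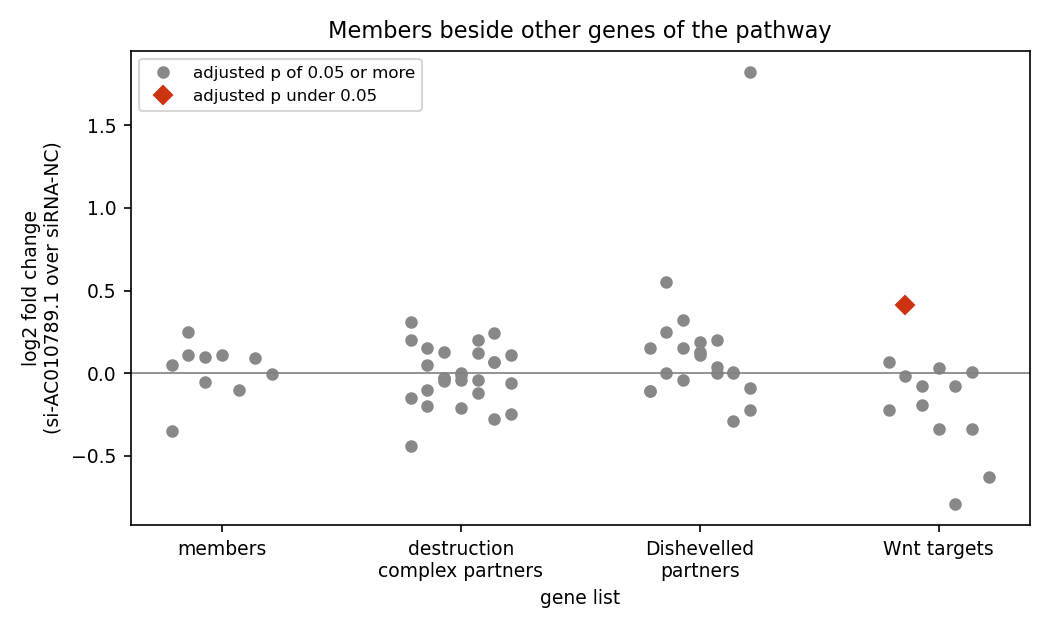
Log2 fold change (si-AC010789.1 over siRNA-NC) of the 10 genes and of the other tested genes of 3 pathway lists, 1 point a gene, offset sideways for legibility. The 10 genes lie between -0.35 and 0.25, the highest point is CXXC4 at 1.82 on few counts, and the 1 red diamond is CCND1 at 0.41.

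The genes whose log2 CPM ran most like that of a member across the 6 libraries were listed for AXIN2 and CSNK1A1. Over 13740 other genes, genes with high Pearson correlations with AXIN2 included SYNJ1 (0.984) and RFX3 (0.973), and 98 genes were above 0.9. For CSNK1A1 they were ACTBP11 (0.997), EEF1A1P6 (0.997) and CNOT11 (0.995), and 452 genes were above 0.9. The 6 points share the libraries and the group contrast, and with so few points many genes reach such values. ACTBP11 and EEF1A1P6 are pseudogenes whose counts may include reads of ACTB and EEF1A1. Among the 45 pairs of members, the correlation ran from -0.873 (AXIN2 with BTRC) to 0.611, with a median of -0.0865 and 19 pairs above 0.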

How the data were processed

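The members and gene lists were chosen with earlier results of these data known. Libraries were paired-end, and the submitters' processing notes name CASAVA 1.8, TopHat2 2.0.6 and the builds GRCh38 and mm10; the counting program and the strand setting are not given in the sources used here. The authors deposited whole-number counts per Ensembl transcript, without normalization. From these, gene sums were formed with the GENCODE v29 annotation, which matched 98782 of 98886 transcripts. Groups came from the labels. Genes and transcripts were tested with edgeR 4.0.16 (R 4.3.3; TMM, filterByExpr at 10 counts, 15 in total, group as the only term), with Benjamini-Hochberg adjustment at 0.05; the study itself names Cuffdiff, which needs alignments. Depth was 11277222 to 13443866 counts per library, and errors come from the fitted spread between libraries. The text names all members, the 2 transcripts of each with the highest mean CPM, list genes with an adjusted p under 0.05 and the 3 of lowest p in each list, CTNNB1, and the 3 genes most alike to AXIN2 and to CSNK1A1, the member of lowest p; 1 gene that this rule names is not reported here. The transcripts ENST00000453535, ENST00000606299 and ENST00000572285 and the coding stretches printed were picked after their values were seen. MYC was named because the study reported on it, also with its value seen. Alternatives were DESeq2 1.42.0, upper-quartile normalization, other filters, protein-coding transcripts only, a replicate block and leaving out each library. Gene sums, levels per length, shares and sequence searches were made with Python 3.11.15 and pandas 2.3.3. Only the edgeR fit was tested on simulated counts.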

Additional observations from a re-analysis of the deposited data

How the results depend on the processing

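None of the 10 members passed the adjusted threshold under any of the 12 alternatives (lowest adjusted p 0.263), and 112 of 120 recomputed log2 fold changes kept their sign. The sign turned for APC without si-AC010789.1 replicate 2 (0.067), for AXIN2 without si-AC010789.1 replicate 1 (0.0066), for DVL1 without si-AC010789.1 replicate 1 (-0.0079) or siRNA-NC replicate 3 (-0.061), and for DVL2 with upper-quartile normalization (0.014) and without si-AC010789.1 replicate 1 (0.045), si-AC010789.1 replicate 3 (0.0063) or siRNA-NC replicate 1 (0.018); the cause was not tested. The range when a library was left out was -0.68 to 0.067 for APC, -0.095 to 0.0066 for AXIN2, -0.061 to 0.24 for DVL1, -0.064 to 0.045 for DVL2, 0.13 to 0.37 for AXIN1, 0.042 to 0.17 for GSK3A, 0.046 to 0.13 for GSK3B, 0.038 to 0.17 for BTRC and 0.015 to 0.097 for DVL3. With protein-coding transcripts only, GSK3A moved to 0.47, and with the replicate block APC moved to -0.56. Of member transcripts, 0 to 4 met the unadjusted criteria when a library was left out. The 4 appeared without siRNA-NC replicate 1, which leaves that arm with 2 libraries: ENST00000222330 (5.84) and ENST00000453535 (-2.8) of GSK3A, and ENST00000408038 (1.05) and ENST00000370187 (-2.04) of BTRC, at adjusted p-values from 0.362 to 0.825. Of 60 partner genes, 1 passed in the fit reported (CCND1) and 0 with no filter, 0 with protein-coding transcripts only, 0 with the replicate block and 0 whichever library was left out. The number of all genes called was 135 as reported, 559 with DESeq2, 69 with no filter, 56 with protein-coding transcripts only, 0 with the replicate block, and 12 to 37 when a library was left out. The replicate numbers were not taken to pair the libraries: deviations of same-numbered libraries correlated at 0.111, 0.0109 and 0.0164 over genes, and siRNA-NC replicate 2 correlated best with si-AC010789.1 replicate 3 (0.0791). Over transcripts each library correlated best with its own number, at 0.00881 to 0.0144, a hint from the data; no source used here says that a number marks a shared generation or day. With the length of the longest counted transcript, levels per length moved to 26.1 TPM for AXIN1, 17.3 for AXIN2, 74.9 for GSK3B, 72.9 for CSNK1A1 and 46.7 for DVL2. The median SE on the log2 scale was 0.492 for member transcripts and 0.0851 for member genes, with SEs from 0.0801 among the transcripts, so the smallest difference that could be seen varied from one transcript to another.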
